A study of Drosophila melanogaster with 2 samples.

Results

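The Rab GTPases are the largest branch of the Ras superfamily, and each member marks particular membranes and vesicles inside the cell. Members were taken from the deposited transcript table of posterior midguts by symbol, as Rab or RabX followed by a digit or a Rab-RP name, with the most-read transcript standing for each locus. The rule found 31 of 13816 loci. A further 2 Rab genes of the fly, Rab32 and RabX1, are listed in that table under their older mutant names ltd and chrw and so fall outside the rule. They were added after the values were seen, are described separately and enter no count below unless stated.

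The study sequenced poly(A) RNA of the posterior midgut, the hind part of the fly's absorptive middle intestine, from wild-type Oregon R females raised at 25 °C. Flies were 5 or 45 days old, with 75 guts dissected per condition, RNA extracted from pooled guts and 3 biological replicates per age. The deposited table names its 6 libraries as 3 of treatment and 3 of control, and which name stands for which age is not stated in the labels or files. Should control be the 5-day flies, higher in treatment would read as higher at 45 days. All groups share strain, sex and genotype, no transgene is named, and p-values measure the spread between these pools.

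A Rab protein works as a switch. A guanine nucleotide exchange factor (GEF) loads it with GTP on its membrane, where it recruits tethers, motors and other effectors, and a GTPase-activating protein (GAP), usually with a TBC domain, returns it to the GDP form. Rab escort protein presents new Rabs for the addition of lipid tails, and GDP dissociation inhibitor carries the GDP form back through the cytosol. In an absorptive epithelium these switches serve delivery of proteins to the apical and basolateral surfaces, uptake and recycling of receptors, and degradation in lysosomes, while a few members serve regulated release from neurons and endocrine cells.

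Libraries held 9581965 to 18001958 reads over genes. Levels below are read counts divided by library size (CPM, per 1000000 reads), scaled by trimmed mean of M values (TMM), with mean ± SD over 3 libraries. Levels of different genes are compared only as RPKM, that is CPM per 1000 bases of transcript. A gene is called where edgeR's quasi-likelihood test gave a Benjamini-Hochberg adjusted p under 0.05 over all 8137 genes tested, and log2 fold changes are treatment minus control. Of the tested genes 25.0% were called higher in treatment and 24.1% lower, with a median log2 fold change of 0.01. In RNA of pooled posterior midguts, fewer cells of a type and less RNA per cell cannot be told apart. Cell type markers differed between the sets: all 8 stem cell and enteroblast markers were called higher (summed 199 to 206 CPM in treatment, 126 to 129 in control), and all 9 visceral muscle markers lower (846 to 859 against 1812 to 1923 CPM). Of 7 markers of enterocytes, the main absorptive cells, 3 were called higher and 4 lower. Their summed level was 5324 to 5823 CPM in treatment and 8900 to 9197 CPM in control. The largest falls in that sum were of LManV (1377 CPM in treatment, 3784 in control) and Amy-p (1280 and 2280 CPM). The log2 fold change of nub was 0.18 and that of Myo31DF was -0.17. That of Vha100-4 was 4.77 (29.0 CPM in treatment, 1.06 in control), the largest rise of all genes tested. The sum therefore does not stand for all 7. Trachea, hemocytes and fat body had 3 tested markers each. In edgeR all 3 of trachea were called lower, and hemocytes and fat body each had 2 called higher and 1 lower. DESeq2 called no trachea marker, and no hemocyte marker lower. The part of these shifts in the Rab results was not tested.

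Of the 31 Rab loci, 21 had enough reads to test, as had 8137 of all 13816 loci. Among them 14 were called higher in treatment, against 25.0% of all genes, 1 was called lower, against 24.1%, and 6 were not called. The median log2 fold change of the 21 was 0.22, against 0.01 over all genes tested, and the range was -0.70 to 0.43. All 3 treatment libraries lay above all 3 control libraries for 15 of the 21, against 28.4% of all genes, and below them for 1, against 26.9%. The differences were small: the called rises ran from 1.09-fold for Rab5 to 1.34-fold for Rab19. With each library scaled to its total reads instead, the median of all genes moved to 0.22 and 50.7% of all genes were called higher, so the count of 19 higher and 1 lower Rab loci under that scaling includes this common shift.

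The order of levels was led by the Rabs of the recycling endosome, the early secretory path and the endosomes. In control libraries Rab11 stood first with 224 ± 9.36 RPKM, followed by Rab1 with 172 ± 7.45, Rab5 with 150.1 ± 8.08 and Rab7 with 142 ± 10.3. Rab5 and Rab7 overlapped in the control libraries but not in the treatment libraries, and Rab11 and Rab1 were each apart from the next gene in both sets. A second tier held Rab10 with 87.7 ± 3.96 RPKM, Rab18 with 85.1 ± 4.21, Rab6 with 72.6 ± 2.39 and Rab2 with 57.5 ± 3.26. Rab10 and Rab18 overlapped in control, whereas in treatment Rab18, with 107 ± 7.25 RPKM, lay above Rab10, with 97.4 ± 2.86, in all 3 libraries. Control levels then ran from Rab4 at 32.1 RPKM to Rab40 at 9.52 RPKM, and the neighbouring pairs Rab21 and Rab14, Rab39 and Rab8, Rab8 and Rab9, Rab19 and RabX6, and RabX6 and Rab40 overlapped. RabX4 with 2.30 ± 0.14 RPKM and Rab3 with 1.47 ± 0.22 RPKM were the lowest tested. Summed over the 30 loci other than the merged Rab4 locus, Rab levels came to 2331 ± 32.5 CPM in treatment and 2091 ± 87.5 CPM in control, 1.12-fold higher, and the libraries of the sets did not overlap (2295 to 2358 against 1990 to 2142 CPM).

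**Figure D1:**
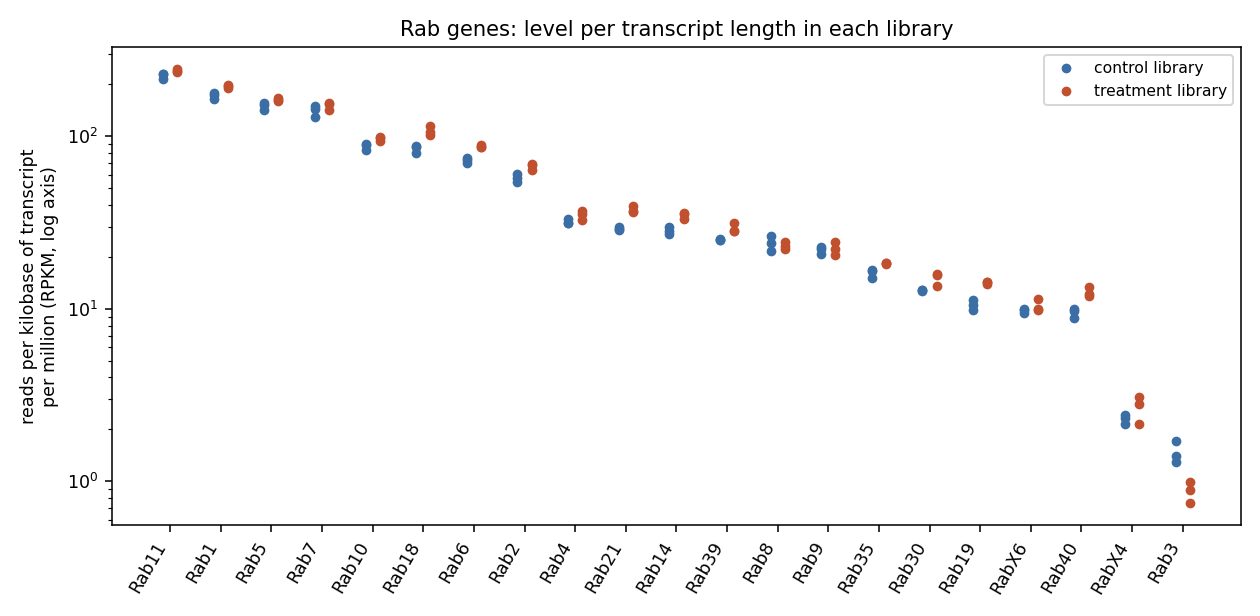
Level per transcript length (RPKM, log axis) of the 21 tested Rab genes in each of the 3 control and 3 treatment libraries, ordered by control mean, with Rab4 shown by its own transcript. Rab11, Rab1, Rab5 and Rab7 stand above the others, and RabX4 and Rab3 lie lowest.

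Of the 8 secretory Rabs, 7 were called higher in treatment (87.5%, against 25.0% of all genes). The median log2 fold change of the 8 was 0.24. Rab1 (chr3R:17091751-17094831 in the deposited table, whose genome build is not named; 5 exons) governs transport from the endoplasmic reticulum to the Golgi. It had 366, 353 and 361 CPM in treatment and 329.8, 303 and 322 CPM in control. Every treatment library lay above every control library, and the log2 fold change was 0.18 (SE 0.04, edgeR adjusted p = 0.00105). Rab2, which acts at the Golgi and in traffic to lysosomes, had 150.4, 141 and 152 CPM in treatment and 133, 119 and 127 CPM in control (log2 fold change 0.23, SE 0.05, edgeR adjusted p = 1.9e-04).

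Rab6, the Golgi Rab that works with Bicaudal D, is a single-exon transcript at chr2L:12107287-12109124. It had 158, 159.9 and 165 CPM in treatment and 138, 133 and 129 CPM in control. The sets were apart by more than the range within either, with a log2 fold change of 0.27 (SE 0.05, edgeR adjusted p = 6.9e-06). Rab18, listed as Rab-RP4 at chrX:5564855-5565842 and tied to the endoplasmic reticulum and lipid droplets, had 84.6, 96.4 and 88.0 CPM in treatment and 73.5, 67.0 and 72.7 CPM in control. Its log2 fold change of 0.33 (SE 0.06, edgeR adjusted p = 8.1e-06) was the second largest of the secretory Rabs.

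The largest was that of Rab19, listed as Rab-RP3 at chr3L:8290272-8291605, a Golgi Rab. It had 14.7, 14.4 and 14.8 CPM in treatment and 10.2, 11.5 and 10.8 CPM in control. The 3 treatment libraries were almost level, and the log2 fold change was 0.43 (SE 0.09, edgeR adjusted p = 3.1e-04). Rab10 directs basement membrane secretion and basolateral delivery. It had 221, 212 and 224 CPM in treatment and 204, 187 and 201 CPM in control (log2 fold change 0.15, SE 0.05, edgeR adjusted p = 0.0057). Rab30, another Golgi Rab, had 32.5, 27.7 and 32.7 CPM in treatment and 26.4, 26.0 and 26.5 CPM in control (log2 fold change 0.25, SE 0.07, edgeR adjusted p = 0.00591), and DESeq2 placed it at the threshold with an adjusted p of 0.0505.

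Rab8, which carries cargo from the Golgi to the plasma membrane, was the exception among the secretory Rabs. Its libraries overlapped, with 50.1 to 55.1 CPM in treatment and 48.8 to 59.3 CPM in control, and its log2 fold change was -0.04 (SE 0.07, edgeR adjusted p = 0.610). The sign turned with total-read scaling and without control replicate 3.

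**Figure D2:**
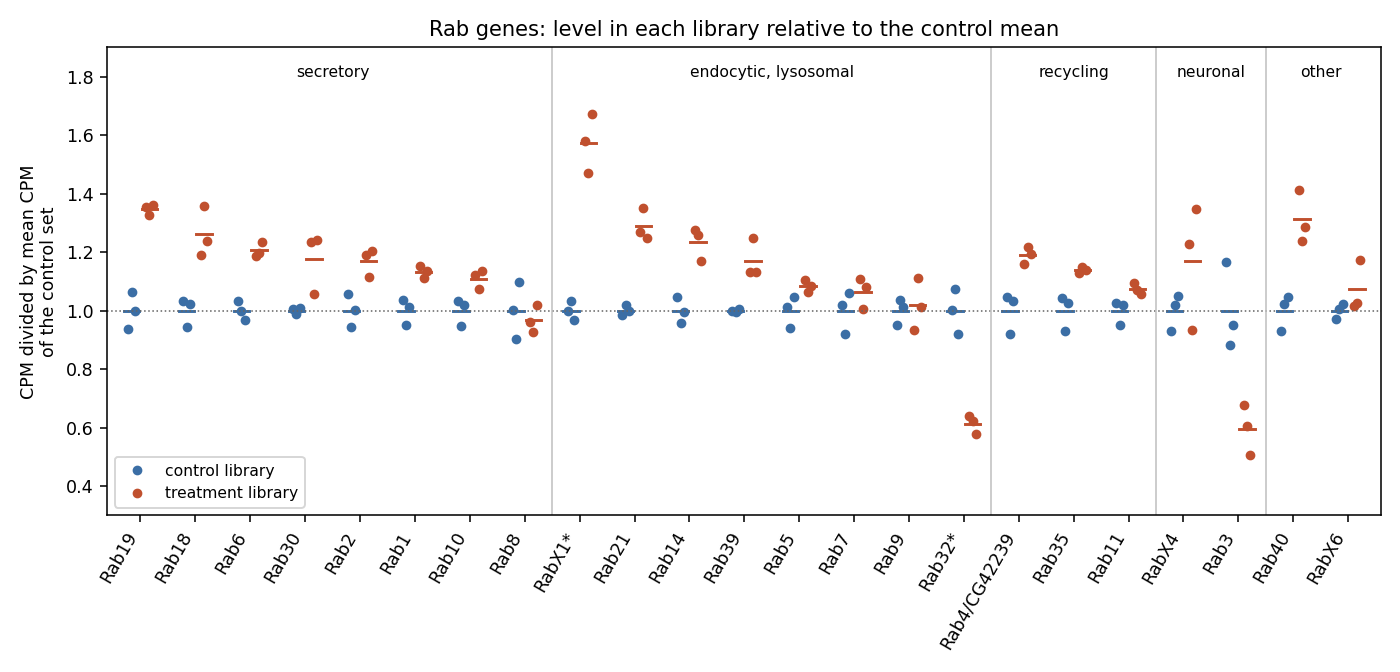
CPM of each library divided by the mean CPM of the control set, for the 21 tested Rab genes and for Rab32 and RabX1 (asterisks), grouped by role; dots are libraries and short lines are set means. The merged locus Rab4/CG42239 is shown by its most-read transcript, that of CG42239. Treatment dots lie above control dots for most genes, and below them for Rab3 and Rab32.

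Of the 6 endocytic and lysosomal Rabs, 4 were called higher (66.7%, against 25.0% of all genes) and 2 were not called. Their median log2 fold change was 0.17. Rab21 (single-exon transcript at chrX:22413976-22415052), an early endosomal Rab that traffics integrins, had the largest difference among them. It had 39.9, 42.5 and 39.2 CPM in treatment and 30.9, 32.0 and 31.3 CPM in control, with a log2 fold change of 0.36 (SE 0.07, edgeR adjusted p = 3.1e-05). Rab14, which acts between endosomes, Golgi and phagosomes, had 43.4, 42.8 and 39.8 CPM in treatment and 35.6, 32.6 and 33.9 CPM in control (log2 fold change 0.31, SE 0.07, edgeR adjusted p = 2.7e-04). Neither pair of sets overlapped.

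Rab39, linked to lysosomal traffic, had 32.0, 35.3 and 32.0 CPM in treatment and 28.2, 28.1 and 28.5 CPM in control (log2 fold change 0.22, SE 0.07, edgeR adjusted p = 0.00948). DESeq2 did not call it, with an adjusted p of 0.0618. Rab5, the organiser of the early endosome, is the most abundant endocytic Rab per length. It had 342, 329.5 and 336 CPM in treatment and 313, 291 and 324 CPM in control. The sets were apart by less than the range of the control set, and the log2 fold change was 0.12 (SE 0.05, edgeR adjusted p = 0.0299). That call was lost in DESeq2 (adjusted p = 0.0643) and, in edgeR, without treatment replicate 1 (0.110), treatment replicate 3 (0.0728), control replicate 1 (0.0704) or control replicate 2 (0.146).

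Rab7 (chr3R:19818732-19821266), which drives late endosomes to the lysosome, was not called. It had 252, 229 and 246 CPM in treatment and 232, 209 and 241 CPM in control, so the sets overlapped (log2 fold change 0.09, SE 0.05, edgeR adjusted p = 0.126). It passed without treatment replicate 2 (adjusted p = 0.0399) and without control replicate 3 (0.0382). Rab9, which returns cargo from late endosomes to the Golgi, had nearly equal means of 35.4 ± 3.11 CPM in treatment and 34.7 ± 1.58 CPM in control (log2 fold change 0.01, SE 0.07, edgeR adjusted p = 0.913), and its sign turned without treatment replicate 2 or without control replicate 1.

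Of the 3 recycling loci 2 were called higher (66.7%, against 25.0% of all genes). They were Rab35 and the merged Rab4 locus, the latter by a transcript of the neighbouring gene CG42239. With Rab4's own transcript, Rab35 alone was called. DESeq2 called 1 of the 3 loci higher, where it called 17.4% of all genes higher. All 3 had treatment libraries above control libraries, against 28.4% of all genes, the merged Rab4 locus by its most-read transcript only. Rab11 (chr3R:16937129-16941877), the Rab of the recycling endosome and the most abundant Rab per length, had 448, 438 and 432 CPM in treatment and 421, 389.8 and 418 CPM in control. The sets did not overlap, yet the log2 fold change of 0.10 (SE 0.04) missed the threshold with an edgeR adjusted p of 0.0554. The authors' deposited table gives Rab11 a log2 fold change of 0.09 with an adjusted p of 0.0373.

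Rab35, a Rab of the plasma membrane and of fast recycling, had 47.3, 48.2 and 47.8 CPM in treatment and 43.8, 39.0 and 43.1 CPM in control (log2 fold change 0.19, SE 0.06, edgeR adjusted p = 0.0162). The treatment libraries were within 1 CPM of one another, and the call was lost in DESeq2 (adjusted p = 0.0706) and without control replicate 2 (0.110). Rab4, a Rab of early recycling, shares its locus in the deposited table with the neighbouring gene CG42239, whose RefSeq transcript is the most read of the 4 there. That transcript had 112, 118 and 116 CPM in treatment and 102, 89.3 and 100.0 CPM in control (log2 fold change 0.25, SE 0.05, edgeR adjusted p = 1.2e-04). The most-read transcript that RefSeq assigns to Rab4 itself had 45.8 ± 2.69 CPM in treatment and 41.9 ± 1.43 CPM in control, and with it in place of the first the log2 fold change was 0.13 with an edgeR adjusted p of 0.108. The libraries of Rab4's own transcript overlapped, with 46.3, 48.1 and 42.8 CPM in treatment and 43.6, 40.9 and 41.3 CPM in control. The count called higher is then 13, and this locus is no longer among the 15 with treatment libraries above control libraries.

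The neuronal and regulated-release Rabs were scarce. Rab3 docks secretory vesicles at synapses and in endocrine cells. Control libraries 1 to 3 gave it 72, 76 and 77 reads, and treatment libraries 1 to 3 gave 73, 34 and 33. That is 3.73, 3.33 and 2.80 CPM against 6.43, 4.87 and 5.25 CPM, without overlap. Rab3 was the 1 Rab locus of the rule called lower, with a log2 fold change of -0.70 (SE 0.17, edgeR adjusted p = 0.00103), and it kept that call under all 12 alternatives tried. It overlaps the gene CAH13 on the opposite strand, which had 2 reads in all.

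Enteroendocrine cells are the gut's hormone-releasing cells. Of their 12 markers tested, edgeR and DESeq2 each called 8 lower and none higher, against 24.1% of all genes lower in edgeR, with none higher at an unadjusted p under 0.05, and their summed level was 509 to 540 CPM in treatment and 690 to 765 CPM in control. The hormone gene Tk was lower by a log2 fold change of -1.14 (edgeR adjusted p = 1.5e-15), whereas pros, the transcription factor of these cells, had a log2 fold change of 0.16 (edgeR adjusted p = 0.328). Of 9 neuronal markers matched, 4 had enough reads to test and elav alone was called, as higher, while the vesicle transporter gene VGlut was at 0 in all libraries. The summed neuronal level overlapped between the sets (7.47 to 9.30 CPM in treatment, 6.34 to 8.65 CPM in control). The part of these cells in the Rab3 difference was not tested.

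RabX4 had 2.58 ± 0.47 CPM in treatment and 2.20 ± 0.14 CPM in control (log2 fold change 0.24, SE 0.21, edgeR adjusted p = 0.376). Rab27, known in mammals for secretory granule release, could not be tested, with 2, 1 and 1 reads in control libraries 1 to 3 and 1, 1 and 0 in treatment. Rab26, another vesicle Rab, had 5 reads over all libraries. A difference in either was not detectable at this depth.

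**Figure D3:**
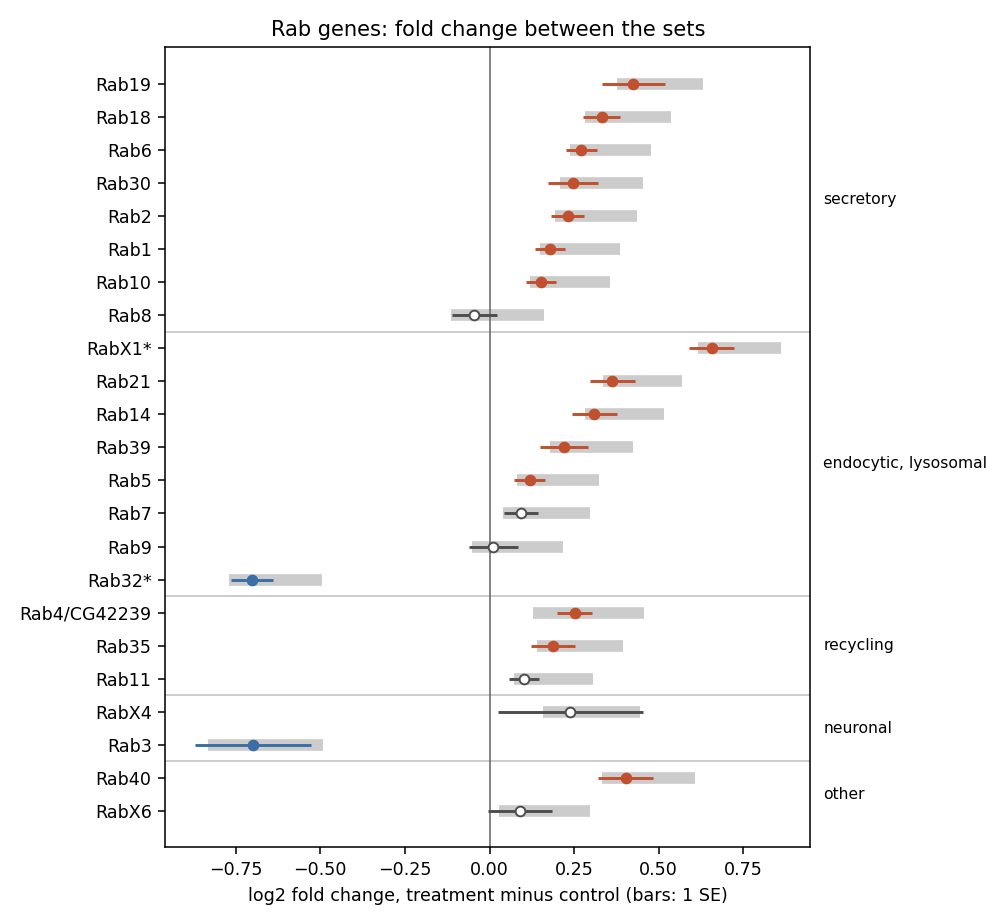
Log2 fold change, treatment minus control, of the 21 tested Rab genes and of Rab32 and RabX1 (asterisks) by role. The merged locus Rab4/CG42239 is shown by its most-read transcript, that of CG42239. Points with bars are estimates with 1 SE, filled where called, and grey bands span the values under the alternatives tried; Rab8 and Rab9 alone have bands that cross 0.

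Among the remaining Rabs, Rab40, known in vertebrates as an adaptor of ubiquitin ligases, was called higher. It had 21.8, 19.1 and 19.9 CPM in treatment and 14.4, 15.8 and 16.1 CPM in control, with no overlap (log2 fold change 0.40, SE 0.08, edgeR adjusted p = 1.3e-04). RabX6 had 12.7 to 14.7 CPM in treatment and 12.1 to 12.8 CPM in control, which overlapped (log2 fold change 0.09, SE 0.09, edgeR adjusted p = 0.452). It overlaps the SNARE gene Vti1a on the opposite strand by 466 bases, and the strand setting of the counting is not given, so reads of the pair cannot be told apart there. Rab2, Rab10 and Rab19 overlap opposite-strand genes by 242, 66 and 11 bases. Rab23, a regulator of planar polarity in the fly wing, had 5 reads over all 6 libraries.

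Another 7 loci were listed at 0 in every library. Of these, 6 are single-exon loci of the X chromosome: Rab9D, Rab9Db, Rab9E, Rab9Fa, Rab9Fb and RabX2, of which the 5 named for Rab9 lie between positions 10483122 and 10846519. The other is RabX5 on 3L. For comparison, 11198 of all 13816 loci had any reads. A count of 0 allows up to 3 reads per library, or 0.153 to 0.294 CPM depending on depth, from counting error only. How the authors treated reads that fit several of the X-linked copies is not given, and its part in these zeros was not tested. The X chromosome carries 13 of the 31 loci (41.9%), against 2204 of all 13816 loci, and 6 of those 13 are loci at 0.

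The 2 Rab genes listed under other names differed between the sets by about as much as Rab3. Rab32, the product of lightoid, needed for eye pigment granules and other lysosome-related organelles, had 50.7, 49.2 and 45.9 CPM in treatment and 79.5, 85.1 and 73.0 CPM in control. It was called lower, with a log2 fold change of -0.70 (SE 0.06, edgeR adjusted p = 2.8e-11). RabX1, an endosomal Rab of the fly, had 54.5, 50.7 and 57.6 CPM in treatment and 34.5, 35.6 and 33.4 CPM in control. It was called higher, with a log2 fold change of 0.66 (SE 0.07, edgeR adjusted p = 5.9e-10). With both included, 15 of 23 tested Rab genes were called higher (65.2%, against 25.0% of all genes) and 2 lower (8.7%, against 24.1%).

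The proteins that load, unload and receive the Rabs were called in both directions. Of 73 listed regulators and effectors 69 were tested. Of these 14 were called higher (20.3%, against 25.0% of all genes) and 10 lower (14.5%, against 24.1%), with a median log2 fold change of 0.02. With total-read scaling the split was 37 higher and 1 lower, or 53.6% and 1.4%, where 50.7% and 13.2% of all genes were called. With DESeq2 it was 9 and 5, or 12.9% and 7.1%, where the shares of all genes were 17.4% and 18.8%. The single lists below hold 4 to 16 tested genes each, and their counts are given as descriptions. Whether the regulators differ from the Rabs was not tested.

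Of the 4 genes for lipidation and extraction, the general carriers of Rabs, 2 were called higher (50.0%, against 25.0% of all genes). Rab escort protein, Rep, had 40.6 ± 0.89 CPM in treatment and 30.7 ± 0.09 CPM in control (log2 fold change 0.41, SE 0.07, edgeR adjusted p = 4.6e-06). GDP dissociation inhibitor, Gdi, had 397 ± 14.4 CPM in treatment and 349 ± 12.9 CPM in control (log2 fold change 0.19, SE 0.04, edgeR adjusted p = 8.1e-04). The lipid transferase subunits were not called.

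Of 11 exchange factors tested, 2 were called higher and 2 lower, 18.2% each way, where 25.0% and 24.1% of all genes were. Rabex-5, the GEF of Rab5, had 39.1 ± 1.36 CPM in treatment and 27.4 ± 0.87 CPM in control (log2 fold change 0.51, SE 0.07, edgeR adjusted p = 1.5e-07), a larger difference than that of Rab5 itself. Crag, a GEF of Rab10, had a log2 fold change of 0.22 (edgeR adjusted p = 7.7e-04). Mon1, part of the GEF of Rab7, was lower by a log2 fold change of -0.29 (edgeR adjusted p = 0.00151), and Rab3-GEF, the partner of Rab3, by -0.27 at the edge of the threshold (edgeR adjusted p = 0.0491), a call lost under 9 of 12 alternatives. Mon1 was not called with total-read scaling (adjusted p = 0.330).

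Of 16 GTPase-activating proteins tested, 3 were called higher (18.8%) and 1 lower (6.2%), where 25.0% and 24.1% of all genes were. TBC1D16, whose vertebrate counterpart acts on Rab4, had the largest difference of any gene in these lists, with 10.2, 10.7 and 11.5 CPM in treatment and 5.45, 6.28 and 4.63 CPM in control, a 1.96-fold difference (log2 fold change 0.97, SE 0.13, edgeR adjusted p = 1.5e-07). RN-tre had a log2 fold change of 0.20 (edgeR adjusted p = 0.0345), TBC1d7 of 0.18 (0.0439) and Tbc1d8-9 of -0.15 (0.0191). RN-tre lost its call under 6 of 12 alternatives, TBC1d7 under 9 and Tbc1d8-9 under 3, and the sign of Tbc1d8-9 turned with total-read scaling.

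Of the 12 tested genes listed under HOPS and CORVET tethers and the early endosome, edgeR called 3 higher, the same 25.0% as of all genes. It called none lower, against 24.1%. None was lower at an unadjusted p under 0.05 in edgeR or DESeq2. The 3 were the Rab7 effector Plekhm1 (log2 fold change 0.22, edgeR adjusted p = 0.0108), the endosomal syntaxin Syx7 (0.14, 0.0163) and Vps33B (0.37, 0.0417). DESeq2 called none of the 3. The tether genes car, dor, lt, Vps16A, Vps39 and Vps8 were not called in edgeR. Of 11 exocyst and Rab11 effector genes, 3 were called higher (27.3%, near the 25.0% of all genes) and 1 lower (9.1%, against 24.1%). The exocyst subunit Exo84 had a log2 fold change of 0.26 (edgeR adjusted p = 9.4e-04), the myosin V motor didum of 0.19 (0.00292) and the Rab11 effector Rip11 of 0.15 (0.00625). The Rab11 effector nuf was lower, with 13.9 ± 1.46 CPM in treatment and 22.5 ± 1.03 CPM in control (log2 fold change -0.68, SE 0.08, edgeR adjusted p = 4.2e-08).

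Of the 10 Golgi tethers and adaptors, edgeR called 5 lower (50.0%, against 24.1% of all genes) and none higher (against 25.0%), with a median log2 fold change of -0.13. DESeq2 called 1 of the 10 lower, where it called 18.8% of all genes lower, so the excess of lower calls was seen in edgeR only. None was higher at an unadjusted p under 0.05 in edgeR or DESeq2. The cis-Golgi protein GM130 had 40.1 ± 1.79 CPM in treatment and 48.8 ± 1.20 CPM in control (log2 fold change -0.28, SE 0.06, edgeR adjusted p = 5.5e-04). Golgin245 had a log2 fold change of -0.15 (edgeR adjusted p = 0.0246), lva of -0.16 (0.0296) and the Rab6 partner BicD of -0.17 (0.0340). These last 3 lost their calls in DESeq2, and with total-read scaling all 4 lost theirs while Golgin245, lva and BicD changed sign. Among 5 tested effectors of regulated release, 1 was called each way, where 25.0% and 24.1% of all genes were: unc-13 was higher (log2 fold change 0.39, edgeR adjusted p = 3.0e-04) and the synaptotagmin-like gene btsz lower (-0.31, 8.9e-04), the second not with total-read scaling (0.229).

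**Figure D4:**
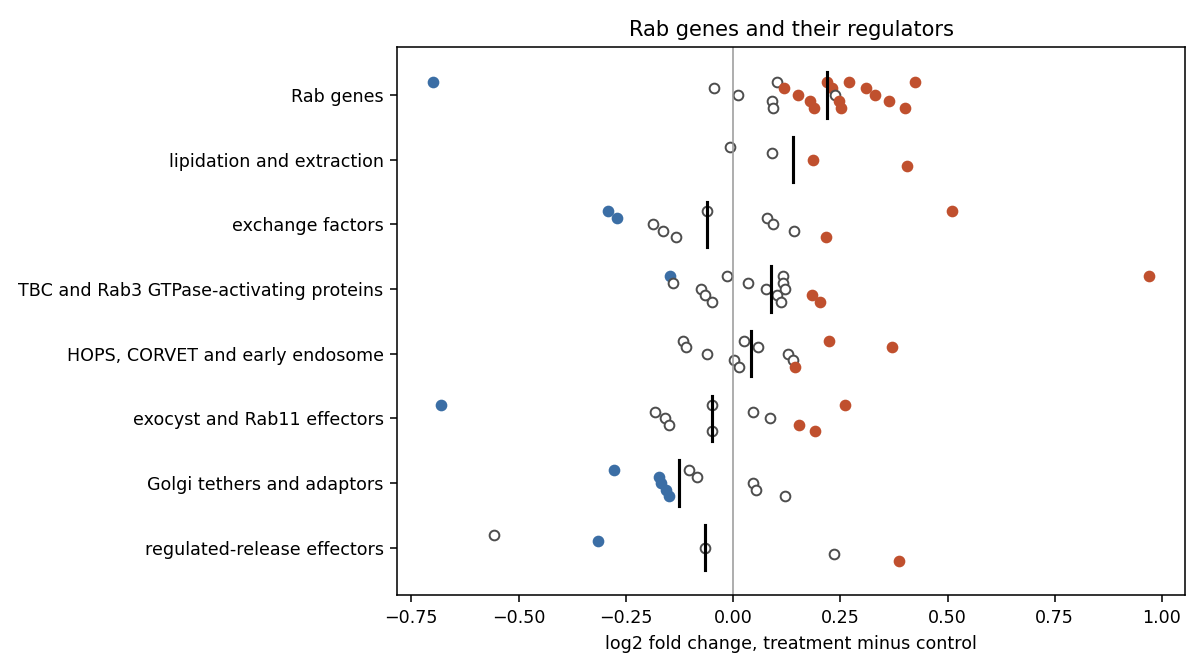
Log2 fold change, treatment minus control, of each tested gene in the Rab family and in the lists of Rab regulators and effectors; filled points are called higher (red) or lower (blue) and black bars are medians. The Rab median lies at 0.22 and that of the Golgi tethers at -0.13. The merged locus Rab4/CG42239 is shown by its most-read transcript, that of CG42239.

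The authors' deposited table lists 17 Rab genes, Rab32 and RabX1 included. The largest adjusted p of any gene in it is 0.0999, and Rab7, Rab8, Rab9, RabX4 and RabX6 are not listed. Rab4 is not listed either, though its merged locus was called higher here. Of the 17 listed Rab genes 15 have a positive log2 fold change. An adjusted p under 0.05 is given there for 16, Rab5 being the exception with 0.0547. Because only genes with low adjusted p are listed, the count of 16 is no separate test of the Rabs. Their values were computed by the authors from the same libraries and add no independent measurement.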

How the data were processed

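The authors deposited raw read counts per transcript for 24047 transcripts in 6 library columns, together with transcript lengths. A further 6 per-library columns of normalized signal were not used. A second table deposited by the authors gives log2 fold changes with standard errors and adjusted p-values for 4101 genes. The submitters' processing notes name DESeq without a version. For the aligner, the genome build, the strand setting and the handling of shared reads, the sources used here name nothing.

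The most-read transcript stands for each locus; 145 predicted transcripts and 6 loci with a repeated symbol were set aside. RefSeq symbols were found for 12820 of 13816 loci. The test was run in edgeR 4.0.16 under R 4.3.3 (counts kept by filterByExpr at a minimum of 10 reads, TMM factors, quasi-likelihood test of 3 treatment against 3 control libraries, Benjamini-Hochberg threshold 0.05). Alternatives were DESeq2 1.42.0, other scalings, no filter on low counts, reads summed over transcripts, a replicate block and leaving out each library. The procedure was tested on simulated data. CPM values divide by TMM-scaled reads, and RPKM values further by transcript length. The spread within a set exceeded counting error (chi-square over degrees of freedom from 2.45 to 7.64), so each library is 1 sample.

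The Rab members, role groups and regulator lists were chosen with earlier results of these data known. Per-library values are given for Rabs called with sets that do not overlap and for Rab1, Rab3, Rab5, Rab7, Rab11 and Rab27. At most 4 genes per regulator list, those with the smallest adjusted p, are named, where called. Of 73 listed regulators 70 were matched. No sequence is shown because no sequence table was used here. A comparison list of genes outside the Rab family is not reported here.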

Additional observations from a re-analysis of the deposited data

How the results depend on the processing

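The count of Rab loci called higher was 14 and ranged from 10 (DESeq2) to 19 (total-read scaling), from 12 to 15 with 1 library left out, and was 13 with Rab4's own transcript. The count of Rab loci called lower was 1 under every setting except with Rab32 and RabX1 added, where it was 2. The shares of all genes called also moved with the setting. Called higher were 17.4% in DESeq2, 50.7% with total-read scaling and 22.1% to 23.5% with 1 library left out. Called lower were 18.8%, 13.2% and 21.4% to 23.3%. The regulators called higher numbered 9 in DESeq2 and 37 with total-read scaling, and 10 to 13 with 1 library left out. Those called lower numbered 5 in DESeq2, 1 with total-read scaling and 6 with reads summed over transcripts. With 1 library left out they ranged from 6 to 11, with 6 without treatment replicate 1, treatment replicate 2 or control replicate 3. Total-read scaling adds about the shift of the median of all genes, from 0.01 to 0.22; the cause of the other changes was not tested.

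Of 46 named genes, 23 kept sign and call under every setting. Signs turned with total-read scaling for Rab8 (log2 fold change 0.160), Tbc1d8-9 (0.058), Golgin245 (0.055), lva (0.048) and BicD (0.037). With 1 library left out Rab8 ranged from -0.115 to 0.021, positive without control replicate 3, and Rab9 from -0.051 to 0.082, negative without treatment replicate 2 (-0.051) or control replicate 1 (-0.032). Library numbers appear only in the column names. Same-numbered libraries deviated together weakly (correlations 0.01, 0.09 and 0.02), so the numbers were not taken as pairs; a replicate block gave 15 Rab loci higher and 1 lower, with Rab11 added, and 13 regulators higher and 9 lower. Low counts limit the precision for Rab3 and RabX4, and Rab23, Rab26 and Rab27 had too few reads for a test.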
